A study of Mus musculus with 9 samples.

Results

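Ank1, Dmtn and Hba-a1 were followed across mouse hearts of 3 groups, to see whether genes of the red cell membrane skeleton moved with globin or apart from it. Ank1 encodes ankyrin-R, Dmtn encodes dematin and Hba-a1 encodes an adult alpha globin chain. They were chosen by gene number from the probe codes of the array, which gave 3 of the 8102 genes that could be named on the array, with 4 of its 46657 probes. Of these 4 probes 3 passed the filter on dim probes, as did 19692 probes in all. The hearts came from FVB mice aged 14 days that the labels call male. For control hearts the labels name no transgene. N-line hearts carried a transgene for the wild-type form of a membrane transport protein, and K-line hearts a transgene for a constitutively active mutant of it. Each group had 3 arrays, numbered 1, 2 and 3 in control, 2, 3 and 4 in N-line, and 3, 5 and 6 in K-line. The labels give neither the promoter of the transgenes nor whether each line has 1 founder. They also do not say that the arrays are separate animals, so the p-values reflect variation among arrays that may be technical.

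Under the red cell membrane lies a net of spectrin and short actin filaments. Ankyrin-R ties beta spectrin to the anion exchanger in the membrane, and dematin bundles actin at the junctions of the net. Ank1 also has a second life in striated muscle, where short isoforms sit in the sarcoplasmic reticulum and bind the giant sarcomere protein obscurin, and Dmtn is transcribed outside the red cell lineage as well, in heart and brain among other tissues. Globin mRNA in a whole heart comes mainly from the reticulocytes in its blood. In bulk tissue, fewer cells of a type and less RNA per cell cannot be told apart.

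Signals are log2 values of bead intensity after background correction and quantile normalization, and a probe counts as detected when its detection p-value is under 0.05. A difference is called when its p-value from limma, adjusted over the 19692 tested probes by the Benjamini-Hochberg method, is under 0.05. The array held heart RNA by its markers, with Myh6 (alpha myosin heavy chain) and Mybpc3 (myosin binding protein C) detected on all 9 arrays at brightness percentiles of 99.4 and 99.1. Between 17937 and 19021 probes were detected per array. Signals of different arrays within a group correlated at 0.993 to 0.997 across probes, and K-line with other arrays at 0.983 to 0.990. The 3 K-line arrays had their own slide, and slide and line cannot be told apart. Xist was detected by both its probes in 3 of 3 K-line hearts and in no control or N-line heart, while the Y-linked Kdm5d, Ddx3y and Eif2s3y were detected in 0 of 3, which goes against the male label. The atrial gene Myl7 was at 13.38 to 13.57 in control and at 4.90 to 8.44 in K-line. All 7 tested macrophage markers rose in K-line against control, where 12% of all tested probes rose. Their summed linear signals were 4787 to 8388 against 1679 to 1822 in control. The part of slide, sex, atrial tissue and macrophages in the results was not tested.

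Ank1 on chromosome 8 has 2 probes on the array, and they gave different pictures. The brighter probe was detected on all 9 arrays, with a standard error between beads of 2.16% to 3.96% of its intensity. The other was below background on all 9 arrays, at 4.49 to 4.63, and has no measured change. The sources used here do not say which Ank1 transcripts each probe detects, so the red cell and muscle forms cannot be told apart. All Ank1 values from here on are those of the brighter probe.

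Ank1 was lower in K-line hearts and close to control in N-line hearts. Its signal was 10.76, 10.72 and 10.53 on the control arrays, 10.57, 10.58 and 10.50 on the N-line arrays, and 10.19, 9.36 and 9.48 on K-line arrays 3, 5 and 6. The K-line arrays all lay below the lowest of the other 6, K-line 3 nearest to them and K-line 5 and 6 far below, while control and N-line overlapped. The same order stood in the raw intensities before any correction, at 1384 to 1989 in control, 1359 to 1482 in N-line and 763 to 1167 in K-line. From control to K-line Ank1 fell by 0.99 on the log2 scale (SE 0.18, 95% interval -1.39 to -0.59, n = 3 per group), to 0.503 of the control level, with an adjusted p of 0.00303. In N-line the difference was -0.11 (SE 0.18, interval -0.51 to 0.28, adjusted p 0.884).

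Dmtn on chromosome 14 has 1 probe, which was dim but detected on all 9 arrays, with a bead standard error of 3.95% to 7.05%. Its signal was 7.02, 7.33 and 6.99 in control, 6.56, 6.64 and 6.56 in N-line, and 6.03, 5.64 and 5.90 in K-line. The 3 groups did not overlap, with N-line between control and K-line. In raw intensity the groups were also apart, at 146 to 180 in control, 115 to 132 in N-line and 93.3 to 98.9 in K-line. Dmtn fell in K-line by 1.26 (SE 0.13, interval -1.53 to -0.98), to 0.419 of control, with an adjusted p of 7.28e-05. The N-line difference of -0.53 (SE 0.13, interval -0.80 to -0.25) was not called (adjusted p 0.0863). N-line lay below control without overlap for 10.4% of tested probes, so the lack of overlap alone is common on these arrays.

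Hba-a1 on chromosome 11 is the globin against which both are read. In its promoter the elements known from erythroid genes can be seen, and the sequence is printed for that reason, with 5 matches in capitals. They are a GATA box (AGATAA or AGATAG or TGATAA or TGATAG), the CACCC box (CACCC, matched at 2 places), the CCAAT box (CCAAT) and a TATA box (TATAAA or TATAAG), each searched on both strands, with no overlap between the matches. The window runs from 250 bases before the annotated start to 50 after it, at chr11:32283422-32283721 on the plus strand of GRCm38.p6, from RefSeq.
Hba-a1 promoter: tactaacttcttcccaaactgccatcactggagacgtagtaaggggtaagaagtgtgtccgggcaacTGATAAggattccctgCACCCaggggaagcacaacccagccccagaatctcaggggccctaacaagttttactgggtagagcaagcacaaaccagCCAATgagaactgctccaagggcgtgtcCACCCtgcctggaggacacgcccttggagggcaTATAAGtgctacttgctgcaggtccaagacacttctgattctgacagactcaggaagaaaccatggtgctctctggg
Of 32851 promoter windows of this length, 29.8% held the GATA box, 57.5% the CACCC box, 37.4% the CCAAT box and 18.8% the TATA box, so a match describes the sequence and marks no site in use. Ank1 and Dmtn were not matched in the promoter table.

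The Hba-a1 signal was among the brightest on every array, at rank 10 to 46 of 46657 probes, where a change may be compressed. It was 14.75, 14.71 and 14.66 in control, 14.86, 14.69 and 14.81 in N-line, and 14.80, 14.64 and 14.60 in K-line. The 3 groups overlapped, and so did the raw intensities, at 24623 to 29826 in control and 25241 to 29763 in K-line. The K-line difference was -0.03 (SE 0.09, interval -0.24 to 0.18, adjusted p 0.848), and the N-line difference was 0.08 (SE 0.09, interval -0.13 to 0.28, adjusted p 0.841). These intervals do not reach the fall of Ank1 or Dmtn in K-line.

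**Figure D1:**
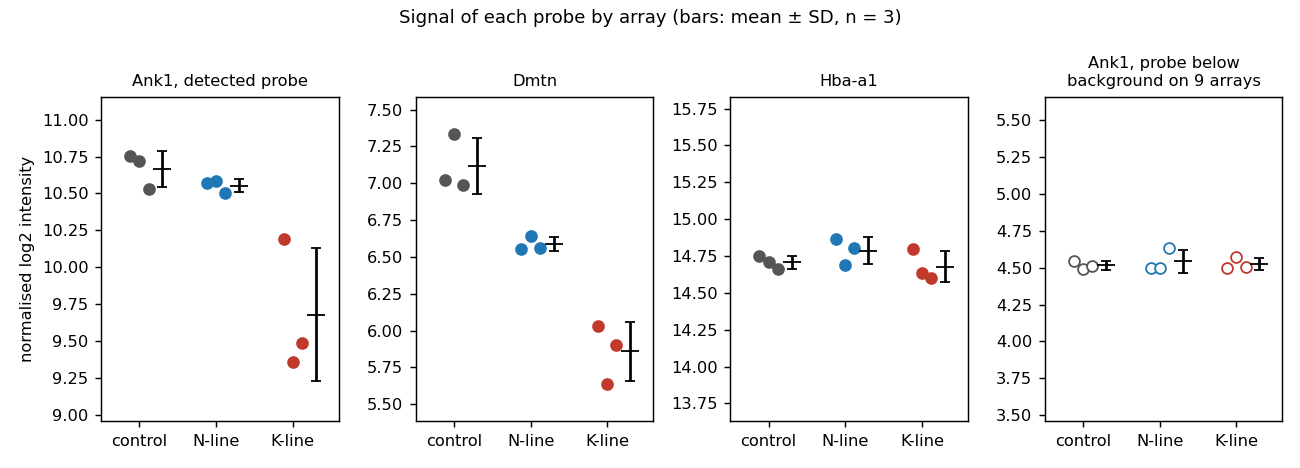
Normalised log2 intensity of each probe by array, with 3 points per group and the mean ± SD beside them. Each panel spans the same number of log2 units, and open points mark arrays without detection. K-line lies below both other groups for the brighter Ank1 probe and for Dmtn, and the groups overlap for Hba-a1.

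Counted against the whole array, 2 of the 3 tested probes fell in K-line, where 24.3% of all tested probes were called, 12% higher and 12.4% lower. K-line lay below control without overlap for 21.1% of probes. The fall of Ank1 was deeper than that of all but 1.24% of tested probes, and the fall of Dmtn deeper than all but 0.620%. The 3 genes were chosen with earlier results of these data known, so these shares describe the falls and test nothing. In N-line 0 of 3 were called by limma, where 0.929% of all probes were, 0.345% higher and 0.584% lower. At an unadjusted p under 0.05, 1 of 3 passed (Dmtn, 0.00147), beside 11.8% of all probes. K-line against N-line compares lines that also differ in slide and in Xist and Y-linked signal, which cannot be told apart from the transgenes. It gave -0.88 for Ank1 (SE 0.18, adjusted p 0.00598) and -0.73 for Dmtn (SE 0.13, adjusted p 0.00223). There 24.2% of probes were called, 12.1% higher and 12.2% lower, and 20.3% lay lower without overlap. Hba-a1 was at -0.11 (SE 0.09, adjusted p 0.435). These comparisons share samples, so they are not independent of each other.

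A pair of beta globin probes, dimmer than Hba-a1, allowed the globin reading to be repeated. Only Hbb-b1 lay well below the top of the scale, and Hbb-b2 was still near it. Hbb-b1, an adult beta globin gene, was at 8.40, 8.16 and 8.27 in control, 8.62, 8.30 and 8.25 in N-line, and 9.03, 8.07 and 7.70 in K-line. Its K-line difference was -0.01 (SE 0.27, interval -0.60 to 0.58, adjusted p 0.983). Hbb-b2, its neighbour and close copy, was at 13.40, 13.38 and 13.25 in control, 13.60, 13.22 and 13.29 in N-line, and 13.60, 13.21 and 12.69 in K-line, with a difference of -0.18 (SE 0.19, interval -0.61 to 0.24, adjusted p 0.532). The probes may not tell these paralogs apart. K-line was the uneven group for both beta globins, with K-line 3 at or above the highest control and K-line 6 below the lowest, and the wide intervals follow from that. The embryonic globins Hba-x and Hbb-y were below background on all 9 arrays.

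K-line 3 had the most globin signal of its group for all 3 globins, and also the highest Ank1 and Dmtn. Even so, its Ank1 (10.19) and Dmtn (6.03) were below every control array, while its Hba-a1 (14.80), Hbb-b1 (9.03) and Hbb-b2 (13.60) were above every control array. K-line 5 and K-line 6 did not keep a common order, since K-line 6 had less globin but more Ank1 and Dmtn than K-line 5. Without K-line 3, the Ank1 difference from control was -1.25 and the Dmtn difference -1.34.

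**Figure D2:**
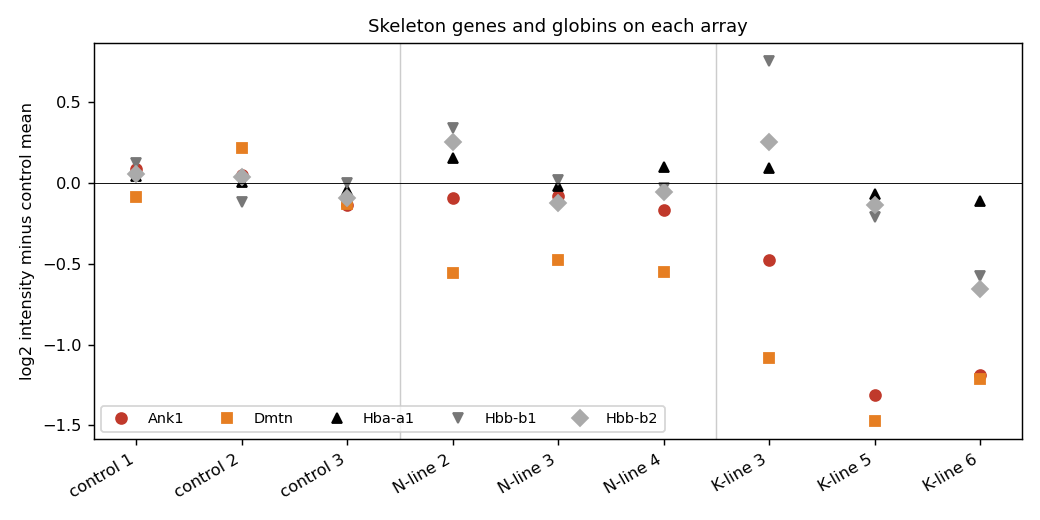
Log2 intensity of Ank1, Dmtn and 3 globins on each of the 9 arrays, minus the mean of the 3 control arrays. On K-line 3 the globins lie above 0 and Ank1 and Dmtn below it, and Dmtn lies below 0 on all N-line arrays.

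The signal of each skeleton gene was then taken relative to Hba-a1 on the same array. This removes a shared factor only where it shifts both log2 values equally. That need not hold here, since a change of Hba-a1 may be compressed and Dmtn is dim. Hba-a1 hardly varied over the arrays (SD 0.09), so the changes relative to it largely repeat those of Ank1 and Dmtn alone. Before subtraction, 21.1% of all tested probes lay lower without overlap in K-line than in control, and 20.3% than in N-line. The share after subtraction was not counted. Ank1 minus Hba-a1 was -4.04 ± 0.08 (SD, n = 3) in control, -4.23 ± 0.11 in N-line and -5.00 ± 0.35 in K-line, a change of -0.96 from control to K-line with no overlap. Dmtn minus Hba-a1 was -7.59 ± 0.19 in control, -8.20 ± 0.14 in N-line and -8.82 ± 0.16 in K-line, a change of -1.23 with no overlap. Only changes in these values carry meaning, since the levels of different probes are not comparable. A two-sided exact permutation test gave p = 0.1 for both changes, the smallest that 3 against 3 arrays can give, so this design cannot pass 0.05 (0.12 adjusted over the 6 comparisons made). For N-line against control the exact permutation p was 0.2 for Ank1, with a change of -0.19, and 0.1 for Dmtn, with a change of -0.61. With Hbb-b1 in place of Hba-a1, a choice made after seeing the data, the K-line changes were -0.98 for Ank1 and -1.25 for Dmtn, and with Hbb-b2 they were -0.81 and -1.07. For K-line against N-line, Ank1 minus Hba-a1 changed by -0.77 and Dmtn minus Hba-a1 by -0.62, both without overlap (exact permutation p = 0.1). With the beta globins in that comparison, Ank1 still did not overlap (-0.76 with Hbb-b1, -0.67 with Hbb-b2), but the groups overlapped for Dmtn (-0.61 and -0.52, exact permutation p = 0.2 for each).

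No other measured gene of the red cell membrane skeleton fell with Ank1 and Dmtn in K-line. Of 27 listed genes 9 were named and tested. In K-line 2 of them fell, Ank1 and Dmtn themselves, and 1 rose, Cd47, the membrane protein that shields cells from phagocytosis (0.47, SE 0.09, adjusted p 0.00364). Of all tested probes 12.4% fell and 12% rose there. The median difference of the 9 was 0.0031, and that of all tested probes was -0.0092. Sptb, the beta spectrin that ankyrin-R binds, was at -0.09 (interval -0.67 to 0.48) and dim. Epb41, protein 4.1 of the spectrin and actin junction, was at 0.21, the adducin Add1 at 0.23 and the Kell-linked transporter Xk at 0.06, none of them called. Actb, which encodes the actin of the red cell filaments as well as of most other cells, was at 0.0031 (interval -0.24 to 0.24). Tpm3, a tropomyosin, has 3 tested probes that disagreed. The brightest was at -0.02 and another at -0.05, while a dimmer one rose by 0.44 (adjusted p 0.0234); it was picked out once its value was known. In N-line 0 of the 9 were called, beside 0.929% of all tested probes, with a median of -0.11. Between K-line and N-line Xk (0.42) and Cd47 (0.27) were higher in K-line, Xk being at -0.36 in N-line against control and not called there, besides the falls of Ank1 and Dmtn. The call of Cd47 there ended under 7 of 14 alternatives, among them all 6 fits without a single array, and that of Xk under 5.

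Among factors and receptors that act in red cell development, 7 of 18 were tested, and changes ran both ways in K-line. There 2 of the 7 fell and 2 rose, beside 12.4% and 12% of all tested probes. Klf3, a repressor of the Krüppel-like family that is itself a target of the erythroid factor KLF1, fell by 0.84 (SE 0.11, adjusted p 4.72e-04). Tfdp2, a partner of E2F factors, fell by 0.48 (adjusted p 0.0449), a call that 9 of 14 alternatives ended. Btg1, which slows cell division, rose by 0.77 (adjusted p 0.0112), and Bcl11a, the repressor of fetal globin genes, rose by 0.58 (adjusted p 0.0132), a call that ended without control 2 and without control 3. Lmo2, the bridging protein of the erythroid GATA complex that endothelial cells also express, was at 0.0028. In N-line, where 0.345% of all tested probes rose and 0.584% fell, Bcl11a rose by 0.71 (SE 0.14, adjusted p 0.0451), and 0 fell. That call ended under 11 of 16 alternatives, with adjusted p-values from 0.0295 to 0.189. The transcription factor Nfe2 was below background on all 9 arrays. Of 20 red cell enzymes and maturation genes 3 were tested, of which the nuclear exporter Xpo7 rose in K-line by 0.60 (adjusted p 0.00433) and the ubiquitin ligase Ube2o was at -0.15. Car1, the red cell carbonic anhydrase, and Cpox, an enzyme of haem synthesis, were below background on all 9 arrays.

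On the muscle side, the relatives and partners of ankyrin and spectrin also moved both ways in K-line. Of 34 listed genes 13 were tested, 3 fell and 1 rose, with a median of -0.02. Of all tested probes 12.4% fell and 12% rose. Plec, which encodes the linker plectin, fell by 0.57 (SE 0.10, adjusted p 0.00191), the alpha spectrin Sptan1 of non-erythroid cells by 0.43 (SE 0.10, adjusted p 0.00857), and Dtna, the dystrobrevin of the dystrophin complex, by 0.38 (adjusted p 0.0176). Flnc, the filamin of the Z disc, rose by 0.44 (adjusted p 0.0188). The call of Dtna ended under 5 of 14 alternatives and that of Flnc under 3. The other ankyrins were Ank2, the cardiac ankyrin-B, at -0.17 (interval -0.43 to 0.09, adjusted p 0.333), and Ank3, ankyrin-G, at -0.35 (interval -0.62 to -0.07, adjusted p 0.0645), so neither was called. The beta spectrin Sptbn1 was at -0.02 and dystroglycan, Dag1, at -0.01. Ablim3, an actin-binding LIM protein with a headpiece like that of dematin, was at -0.05. In N-line 0 of the 13 were called, beside 0.929% of all tested probes, with Plec at -0.31 (adjusted p 0.184). Between the lines Flnc (0.70) and the sarcoglycan Sgcb (0.30, a call that ended under 7 of 14 alternatives) were higher in K-line.

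The list of sarcoplasmic reticulum and calcium release genes also holds channel subunits of the surface membrane. It gave 2 falls and 1 rise among 11 tested of 21 listed genes in K-line, with a median of -0.16. Of all tested probes 12.4% fell and 12% rose. Ryr2, the calcium release channel of the reticulum, was the only called gene of the reticulum itself and fell by 0.57 (SE 0.13, adjusted p 0.00802). With the authors' value table its difference was -0.33 and not called (adjusted p 0.11). Of the surface channel, Cacna2d1, an accessory subunit, fell by 0.60 (SE 0.16, adjusted p 0.0175), and Cacna1c, the pore of the L-type calcium channel, rose by 0.34 (adjusted p 0.0376). Each of these 2 calls ended under 6 of 14 alternatives. Atp2a2, the calcium pump, was at -0.14. Of 22 sarcomere genes 3 were tested. Myh7, the slow myosin heavy chain, rose by 1.77 (SE 0.13, adjusted p 1.15e-05) and Mybpc3 by 0.34 (adjusted p 0.0385, a call that ended under 5 of 14 alternatives), while Myh6 was at 0.16. Over all 7 lists, 17 of 49 tested genes (34.7%) were called in K-line and 1 of 49 (2.04%) in N-line, beside 24.3% and 0.929% of all tested probes. Between K-line and N-line 11 of 49 (22.4%) were called, beside 24.2% of all tested probes. The 49 genes include Ank1 and Dmtn, which were chosen with earlier results of these data known. They also count 1 probe per gene, so these shares and those of all probes are not like for like. The lists were measured only in part.

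**Figure D3:**
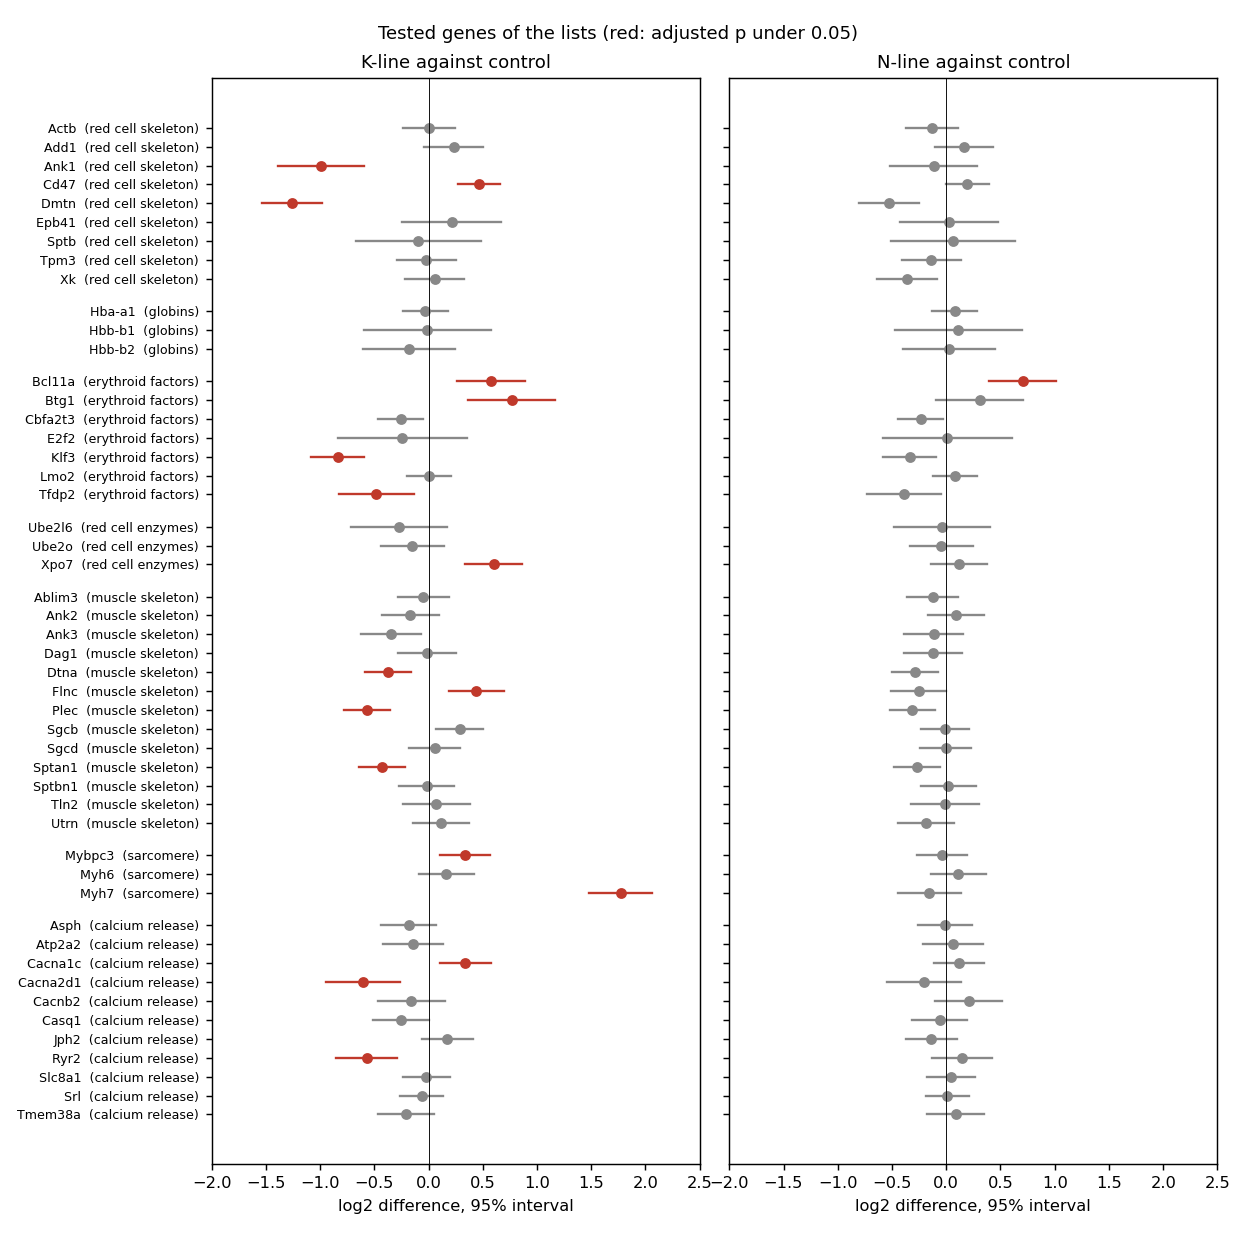
Log2 difference from control with its 95% interval for every tested gene of the 7 lists, K-line on the left and N-line on the right, with called genes in red. Ank1 and Dmtn lie lowest among the listed genes in K-line, at -0.99 and -1.26, and the globins lie near 0 in both panels.

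As a measure of likeness, each probe was centred on its mean over the 9 arrays and the root mean square difference between profiles was taken, over 4751 named probes detected on at least 6 arrays. It is a description of these arrays, in which the step between K-line and the others weighs most. Ank1 and Dmtn differed by 0.24, which put Dmtn at rank 50 from Ank1 and Ank1 at rank 25 from Dmtn. Both were chosen with earlier results of these data known and both fell in K-line, so their nearness is no separate finding. The median distance over all 4751 was 0.53 from Ank1 and 0.56 from Dmtn. From Ank1, the globins lay at 0.40 (Hbb-b2, rank 726), 0.45 (Hba-a1, rank 1279) and 0.46 (Hbb-b1, rank 1417). Nearer to Ank1 in the lists were Klf3 (0.28, rank 107), the dim Ryr2 (0.29, rank 141), Plec (0.31, rank 197) and Sptan1 (0.35, rank 377). So were Tmem38a (rank 462), a Cacnb2 probe (rank 559) and Cacna2d1 (rank 681) of the calcium list, and Ube2l6 (rank 665) of the red cell enzymes. Farther off were Myh6 (0.52) and Myh7 (1.33). From Dmtn, Klf3 (0.24, rank 31) and Plec (0.30, rank 89) came nearest, and the globins lay at 0.51 to 0.61. So single members of both the red cell and the muscle lists lay near Ank1 and Dmtn, while the medians of the lists without Ank1 and Dmtn, from 0.45 to 0.64 for Ank1 and from 0.50 to 0.67 for Dmtn, lay about the median of all probes.

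**Figure D4:**
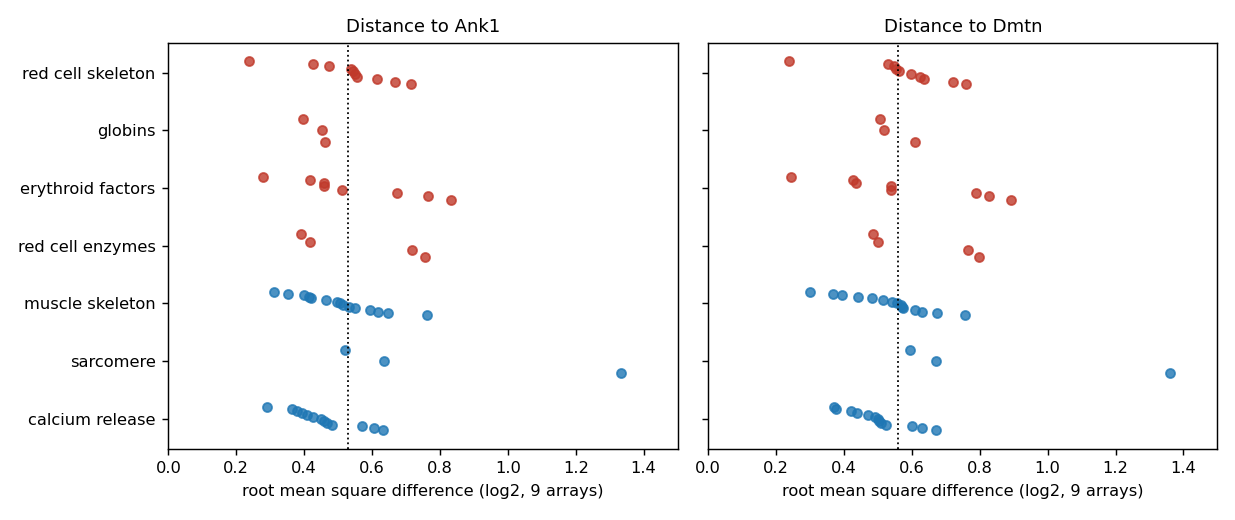
Root mean square difference between the centred profile of Ank1 (left) or Dmtn (right) and each named probe of the 7 lists over 9 arrays, with blood lists in red, muscle lists in blue and the median of all 4751 probes as a dotted line. The nearest point in the top row is the distance between Ank1 and Dmtn, 0.24, and the globins lie at 0.40 to 0.61.

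The genes most like Ank1 over the 9 arrays were Olfml2b, an extracellular olfactomedin-like protein (0.12), Rgs2, a regulator of G protein signalling (0.15), Adcy5, an adenylyl cyclase of heart (0.16), Gdpd5 (0.16) and the sterol-binding protein Osbp2 (0.165). Those most like Dmtn were Dhh, the desert hedgehog ligand (0.15), the neurotrophic factor Cntf (0.15), Olfml2b (0.18), the peroxisome protein Pex11a (0.19) and the histone gene H4c11 (0.20). Olfml2b was common to both, and none of these genes was on any of the 7 lists, red cell or muscle. The lists held only 49 tested genes, beside the 4751 probes compared, so this absence is no result about the lists. The genes nearest to Hba-a1, whose profile hardly varied (SD 0.09), were Arid2 (0.04), Hmgn1 (0.05), Cox6a1 (0.05), the sodium and calcium exchanger Slc8a1 (0.05) and Mrpl12 (0.05). All were flat over the arrays, so nearness to Hba-a1 shows only a lack of change.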

How the data were processed

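Heart RNA was hybridised to 9 bead arrays (Illumina, Mouse-6 v1.1), whose number limits the precision. Per the file headers, the authors exported mean bead intensity per probe from BeadStudio 2.3.47 without normalization. The detection score in the deposited files is a fraction near 1 for bright probes, and 1 minus that fraction was taken as detection p-value. The authors' value table, an alternative only, holds intensity on a linear scale with negative values, and its background and normalization steps are not stated.

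Raw values were corrected by normexp (limma 3.58.1, R 4.3.3; noise from detection p-values, offset 16) and quantile normalized, then log2 was taken. Probes detected on at least 3 arrays were fitted with lmFit and eBayes over 3 group means, a step tested on simulated data. Probe codes were read as NCBI gene numbers, an inference from their form, through the RefSeq table of GRCm38.p6, which named 9796 of 11857 such probes. The 7 gene lists used the brightest tested probe of each gene, and 12 marker lists described other cell types. Genes named are the called list members, at most 8 per list by size, with the brightest uncalled member, and the 5 nearest profiles per gene; other uncalled genes (Add1, Epb41, Sptb, Ank2, Ank3, Sptbn1, Ablim3, the beta globins) were added after their values were seen. Members and lists were chosen with earlier results of these data known. No pair of arrays shared over 327 raw values. The transgene's own level is not reported here.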

Additional observations from a re-analysis of the deposited data

Results flagged for a closer look

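For 11 of 49 tested list genes (22.4%) the difference from control was not the same in K-line and N-line, by limma's test of K-line against N-line at an adjusted p under 0.05. This share is close to the 24.2% of all tested probes, so the count is no result about the lists. The values are log2 effects in K-line minus those in N-line, on 3 arrays per group. The 11 include the followed genes Ank1, at -0.88, and Dmtn, at -0.73, which were chosen with earlier results of these data known. Among list genes lower in K-line than in N-line were Ryr2 (-0.72) and Klf3 (-0.50). Higher were Myh7 (1.93), Flnc (0.70), Xpo7 (0.48), Xk (0.42), Mybpc3 (0.37), Sgcb (0.30) and Cd47 (0.27). Of 14 alternatives, 7 ended the call of Cd47, 7 that of Sgcb, 5 that of Xk, 4 that of Mybpc3, 1 that of Xpo7 (without N-line 2) and 1 that of Klf3 (median scaling, adjusted p 0.0757). Each comes with the change of slide, and of Xist and Y-linked signal, between N-line and K-line. Groups of 3 are too small for a check of single arrays that stand apart.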

How the results depend on the processing

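Ank1 and Dmtn were called lower in K-line, against control and against N-line, under every alternative run. With single arrays left out, Ank1 ranged from -1.25 to -0.83 against control and from -1.13 to -0.72 against N-line, and Dmtn from -1.34 to -1.15 and from -0.81 to -0.62. Dmtn is dim, and its K-line difference from control was -0.91 with no background correction. Dmtn in N-line was called with array quality weights (-0.51, adjusted p 0.0382), the only setting run with 1 of the 3 probes called there.

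With the authors' value table the median over all tested probes shifted by 0.23 in K-line against control, 84.7% of calls were upward (49.2% in the chosen setting, 70.5% with median scaling), and Hba-a1 turned to 0.069 against control and 0.0030 against N-line. Relative to that shift, K-line stood below control by -1.08 for Ank1, -1.45 for Dmtn and -0.16 for Hba-a1. In K-line against N-line, 85.9% of calls were upward with that table and 76.6% with median scaling, beside 49.8%. Leaving out single arrays, Hba-a1 ranged from -0.091 to 0.011 in K-line against control. Dmtn minus Hba-a1 changed by -0.880 with no background correction and -0.876 with an offset of 50 in K-line against control, and by -0.392 and -0.390 against N-line.

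Called list genes in K-line against N-line were 17 with the authors' table (11 in the chosen setting, 7 to 13 without single arrays), while calls over all probes went from 4774 to 6844. In K-line against control they ranged from 11 to 17. In N-line against control they were 2 with array quality weights, 0 with median scaling, the authors' table, no filter, only the 2 groups, the replicate block or the slide of control and N-line alone, and 0 to 1 without single arrays. Over all probes, N-line calls numbered 183, against 109 with median scaling, 314 with 2 groups, 452 with weights, 354 with that slide alone and 25 to 77 without single arrays; K-line against N-line gave 3044 calls without N-line 2 and 4774 with it.

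Signs turned for uncalled list genes. With median scaling Actb was -0.023 (K-line against control), Atp2a2 -0.046 (N-line against control), and Lmo2 0.082 and Ube2o 0.056 (K-line against N-line). With the authors' table Dag1 was 0.063 (K-line against control), and Lmo2 0.071 and Ube2o 0.036 (K-line against N-line). With weights Actb was -0.023. Without single arrays, K-line against control ranged from -0.081 to 0.070 for Actb, -0.13 to 0.11 for Dag1 and -0.050 to 0.076 for Lmo2. K-line against N-line ranged from -0.014 to 0.23 for Dag1, -0.051 to 0.14 for Myh6 and -0.23 to 0.019 for Ube2o, and N-line against control from -0.15 to 0.015 for Ube2o. In K-line against control, leaving out at least 1 array ended the calls of Bcl11a, Cacna1c, Cacna2d1, Dtna, Flnc, Mybpc3 and Tfdp2; median scaling ended those of Cacna2d1, Dtna and Tfdp2, and the authors' table those and Ryr2 (-0.33). Against N-line, leaving out any of the 6 arrays ended the call of Cd47, at least 1 those of Mybpc3, Sgcb, Xk and Xpo7, and median scaling that of Klf3 (-0.35). The cause of these changes was not tested.

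Control and N-line share replicate numbers 2 and 3, with correlations of 0.22 and 0.11 between same-numbered arrays. These are not correlations of the signals themselves, which were 0.993 to 0.995 between control and N-line arrays. With only 2 shared numbers they cannot decide whether same-numbered arrays are paired. With the replicate block, the N-line difference was -0.045 for Ank1, -0.56 for Dmtn (adjusted p 0.275) and 0.089 for Hba-a1, and 16 probes were called. For the comparisons with K-line no block could be fitted, since K-line shares fewer than 2 numbers with each other group.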

Other observations

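Markers of other cell types were measured only in part, and over all tested probes 12.4% fell and 12% rose in K-line against control. In K-line against control, of 5 tested endothelial markers 2 fell (median -0.14), of 9 fibroblast markers 1 rose and 3 fell (median 0.07), of 2 smooth muscle markers 1 fell, of 2 nerve markers 1 fell and of 3 atrial markers 3 fell. Of the 2 adipocyte markers, Car3 was at -2.86 (interval -6.08 to 0.36, adjusted p 0.179) and Acly at 0.018. The brighter Car3 probe varied widely within groups, at 8.36, 11.56 and 10.10 in control and 4.68, 11.48 and 5.27 in K-line. These 2 and the single tested neutrophil, lymphocyte and skeletal muscle markers had 0 calls, and 0 of 2 named platelet markers passed the filter. The 3 tested red blood cell markers, all globins, had 0 calls by limma in any comparison, with unadjusted p-values of 0.277 or more. Their summed linear signal was 36010 to 38720 in control, 36260 to 42610 in N-line and 31600 to 41460 in K-line. In N-line against control the 7 macrophage markers had 0 calls, beside 0.929% of all tested probes, with a median of -0.02. There 1 of 3 atrial markers rose, beside 0.345% of all tested probes.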
